A study of Mus musculus with 40 samples.

Results

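Small nucleolar RNAs (snoRNAs) and small Cajal body RNAs (scaRNAs) were followed in the amygdala of mice that differed in microbial colonisation and in recent social experience. The rows of the count table whose gene symbol begins Snord, Snora or Scarna were taken, without the Snhg host genes, and those with a mean of at least 10 counts over 40 libraries were kept. This left 9 RNAs of 147 such rows, in a table of 43629 genes. They were 4 scaRNAs (Scarna10, Scarna2, Scarna6 and Scarna13), 3 C/D box snoRNAs (Snord17, Snord104 and Snord49a) and 2 H/ACA box snoRNAs (Snora43 and Snora24). They were chosen by their mean count in these same libraries, so that their abundance is a description and was not tested.

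All animals were male Swiss Webster mice aged 10 weeks, and RNA came from the hand-dissected amygdala of the left hemisphere. They had been raised conventionally (CON), without microbes (germ-free, GF), or without microbes until weaning and then kept beside conventional mice on their used bedding (exGF). In each status mice were either naïve or killed 1 hr after social interaction (SI) in an arena that also held an object. The table held 4 libraries for each naïve group, 12 for GF-SI and 8 for each of the other SI groups. A naïve library (named P with a number) pooled RNA of 2 animals by the methods, or 2 to 3 by the series design text, whereas an SI library (named S) came from 1 animal. Pooling and social interaction therefore cannot be told apart. The CON and the GF breeding pairs were separate, so that colony and colonisation status cannot be told apart when CON is compared with GF or exGF. The exGF mice came from the GF unit and differed from GF mice in housing as well as in colonisation.

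Most snoRNAs guide chemical modification of ribosomal RNA in the nucleolus. C/D box RNAs, bound by fibrillarin, place 2′-O-methyl groups, and H/ACA box RNAs, bound by dyskerin, turn uridine into pseudouridine. The scaRNAs do the same to the spliceosomal snRNAs in the Cajal body, a nuclear body that is prominent in neurons, and some of them carry both kinds of box. Most mammalian guide RNAs are cut out of introns of host genes, while a few have promoters of their own.

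The sequences of the 4 scaRNAs, on which most of the results turn, and of 1 snoRNA of each box class are given from the GRCm38 genome in the sense direction, with the positions of GENCODE vM21. Capitals mark TGATGA within the first 20 bases and CTGA within the last 15 (the letters of boxes C and D), and ACA within the last 8. In Scarna2 the capitals mark its only TGATGA, which lies inside the RNA, and the CTGA at its end. The CTGA of Scarna10 starts at base 317, beyond the stretch shown.
Scarna10, first 300 bases, chr6:125186384-125186683, minus strand: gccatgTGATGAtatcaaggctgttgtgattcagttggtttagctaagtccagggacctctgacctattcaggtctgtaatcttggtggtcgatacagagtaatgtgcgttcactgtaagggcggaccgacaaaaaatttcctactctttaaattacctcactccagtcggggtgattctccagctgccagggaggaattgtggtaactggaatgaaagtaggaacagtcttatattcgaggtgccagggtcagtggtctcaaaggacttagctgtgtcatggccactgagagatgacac
Scarna2, last 300 bases, chr3:108554338-108554637, minus strand: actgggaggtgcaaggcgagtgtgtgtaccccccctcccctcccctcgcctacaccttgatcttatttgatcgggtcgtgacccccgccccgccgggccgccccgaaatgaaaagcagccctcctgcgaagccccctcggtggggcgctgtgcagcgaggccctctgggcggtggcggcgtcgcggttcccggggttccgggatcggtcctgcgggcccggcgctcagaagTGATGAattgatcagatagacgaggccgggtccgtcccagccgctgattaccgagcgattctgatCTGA
Scarna6, chr1:87784556-87784820, plus strand: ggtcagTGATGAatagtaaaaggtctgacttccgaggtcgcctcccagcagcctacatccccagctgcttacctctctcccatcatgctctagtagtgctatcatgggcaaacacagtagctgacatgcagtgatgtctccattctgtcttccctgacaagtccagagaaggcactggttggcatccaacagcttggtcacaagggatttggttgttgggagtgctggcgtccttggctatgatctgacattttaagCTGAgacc
Scarna13, chr12:105031075-105031349, minus strand: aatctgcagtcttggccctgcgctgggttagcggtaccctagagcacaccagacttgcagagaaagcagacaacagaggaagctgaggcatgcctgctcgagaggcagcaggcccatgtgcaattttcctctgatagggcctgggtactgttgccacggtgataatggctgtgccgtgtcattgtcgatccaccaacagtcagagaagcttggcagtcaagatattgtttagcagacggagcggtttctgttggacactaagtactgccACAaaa
Snord49a, chr11:62603450-62603521, plus strand: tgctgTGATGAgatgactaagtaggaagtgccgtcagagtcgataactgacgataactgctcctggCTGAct
Snora24, chr3:123507937-123508066, minus strand: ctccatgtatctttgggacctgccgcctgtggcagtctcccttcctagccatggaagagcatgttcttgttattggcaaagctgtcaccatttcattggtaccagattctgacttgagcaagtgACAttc

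TGATGA and CTGA were both found in these windows, on the RNA's own strand, in Scarna10, Scarna6, Snord17, Snord104 and Snord49a, and in 311 of 1558 annotated snoRNA and scaRNA genes. ACA in the last 8 bases was found in Scarna13, Snora43 and Snora24 and in 741 of those genes (47.6%). Such a match describes letters and is not a mapped site.

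Their places in the genome differed. Scarna10 (325 bases, chr6:125186359-125186683), a guide with both kinds of box that acts on U5 snRNA, lies inside Ncapd2, a condensin subunit gene, where a retained-intron transcript covers 237 of its bases. Scarna6 (265 bases), another mixed guide for U5 snRNA, lies in an intron of Atg16l1, an autophagy gene. Snord17 (238 bases, chr2:144265979-144266216), a guide for 28S rRNA, lies in an intron of Snx5, a sorting nexin gene, and Snord49a (72 bases), also a 28S rRNA guide, in an intron of the non-coding gene 2410006H16Rik. Scarna13 (275 bases), an H/ACA guide for U2 and U5 snRNA, lies in an intron of Snhg10, and Snora24 (130 bases), a guide for 18S rRNA, is covered by a retained-intron exon of Snhg8. The identifiers of Snhg10 and Snhg8 have no row in the table used here. No annotated gene overlaps Scarna2 (414 bases, chr3:108554338-108554751), a C/D guide for U2 snRNA, whose nearest gene, Tmem167b on the same strand, has its 3′ end 1674 bases upstream. The same holds for Snord104 (70 bases at chr11:106500993-106501062), a 28S rRNA guide, with Tex2 1085 bases away. Snora43 (139 bases at chr2:26637847-26637985) shares 127 bases with another row of the same symbol that held 0 counts in every library. Gm28967, a sense-intronic row at 0 in every library, covers 281 bases of Scarna10, and Mir3069, whose identifier has no row, covers 65 bases of Scarna13. Strand was not used in counting, and a read inside an exon that 2 genes share is counted for neither, so that the counts of Scarna10, Scarna13, Snora43 and Snora24 depend on how the older annotation drew those exons.

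Of the 147 rows, 97 were Snord, 41 Snora and 9 Scarna. A total of 61 were at 0 in all libraries and 100 had a mean below 1. The 9 kept RNAs held 98.7% of the counts of all 147 rows, and Scarna10 alone held 89.5% of the counts of the 9. The kept RNAs had a median length of 238 bases against 94 for the other 138, and 5 of the 9 but only 2 of the 138 were longer than 200 bases. Fragments shorter than the minimum read length after trimming were not retained, and the part of fragment length in these counts was not tested. At the threshold, Snora24, Snord104 and Snord49a lay just inside with means of 15.2, 13.5 and 10.9 counts, and Snora28, Snora23 and Snora19 just outside with 8.28, 7.65 and 6.98. The brain-enriched Snord116 cluster, imprinted and expressed from the paternal chromosome, had 17 rows, of which 13 were at 0 in all libraries and the highest reached a mean of 1.52 counts. Its neighbours Snord64 and Snord107 were at 0 throughout, and there was no row for Snord115.

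**Figure D1:**
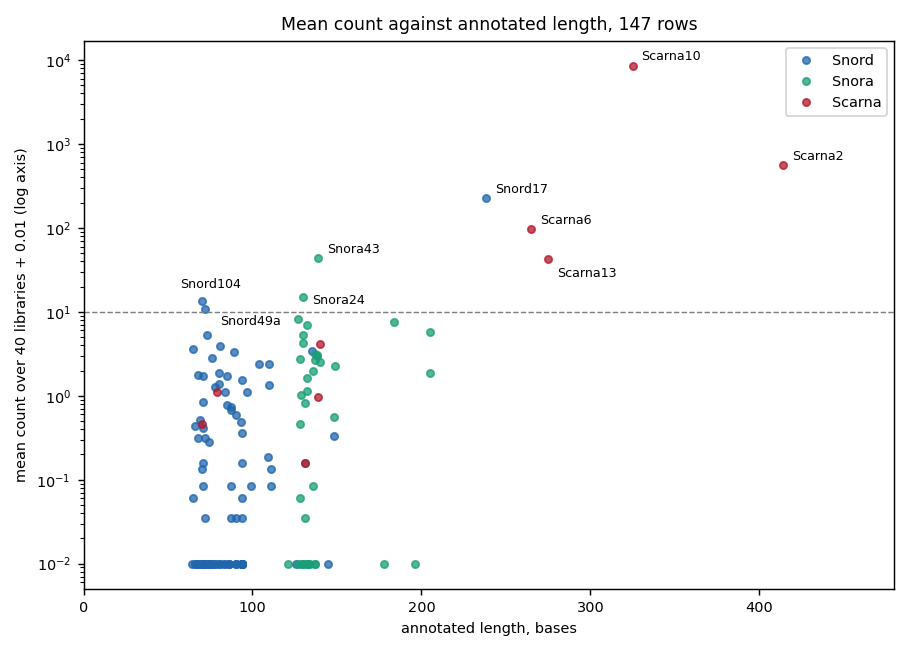
Mean count over the 40 libraries (vertical, log axis, 0.01 added so that rows at 0 can be drawn) against annotated length in bases (horizontal) for 147 rows, coloured by Snord, Snora and Scarna. The dashed line marks the mean of 10 counts. Of the 9 named RNAs above it, 5 are longer than 200 bases.

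Levels are given as counts per 1000000 gene counts (CPM) after TMM scaling over the 40 libraries and, where RNAs are compared with each other, as CPM per kb of annotated length. Scarna10 had by far the highest level, 1852 ± 484 CPM per kb (SD, n = 40). Scarna2 followed with 95.7 ± 21.7, and Snord17 with 66.8 ± 31.1. Scarna6 (25.8 ± 8.71) and Snora43 (22.0 ± 4.67) formed the next pair. Snord104 (13.6 ± 5.48), Scarna13 (10.7 ± 3.32), Snord49a (10.7 ± 3.68) and Snora24 (8.32 ± 2.46) came last. Only the step from Scarna10 to Scarna2 and the step from Snord17 to Scarna6 exceeded the summed SDs of the neighbours. The steps between other neighbours lay within the summed SDs, and the order of the RNAs was not tested. Full annotated lengths were used, also for Scarna10, Scarna13, Snora43 and Snora24, whose counts depend on exons shared with other genes. Their values per kb may therefore not compare with those of the other RNAs. Counting error alone would give a relative error of 1.08% for Scarna10 and 4.21% for Scarna2, far less than their within-group SDs of 21.7% and 19.9% of the mean. For Snord49a it would give 30.3% and the within-group SD was 33.2%, so that its differences are limited by its 2 to 20 counts per library.

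**Figure D2:**
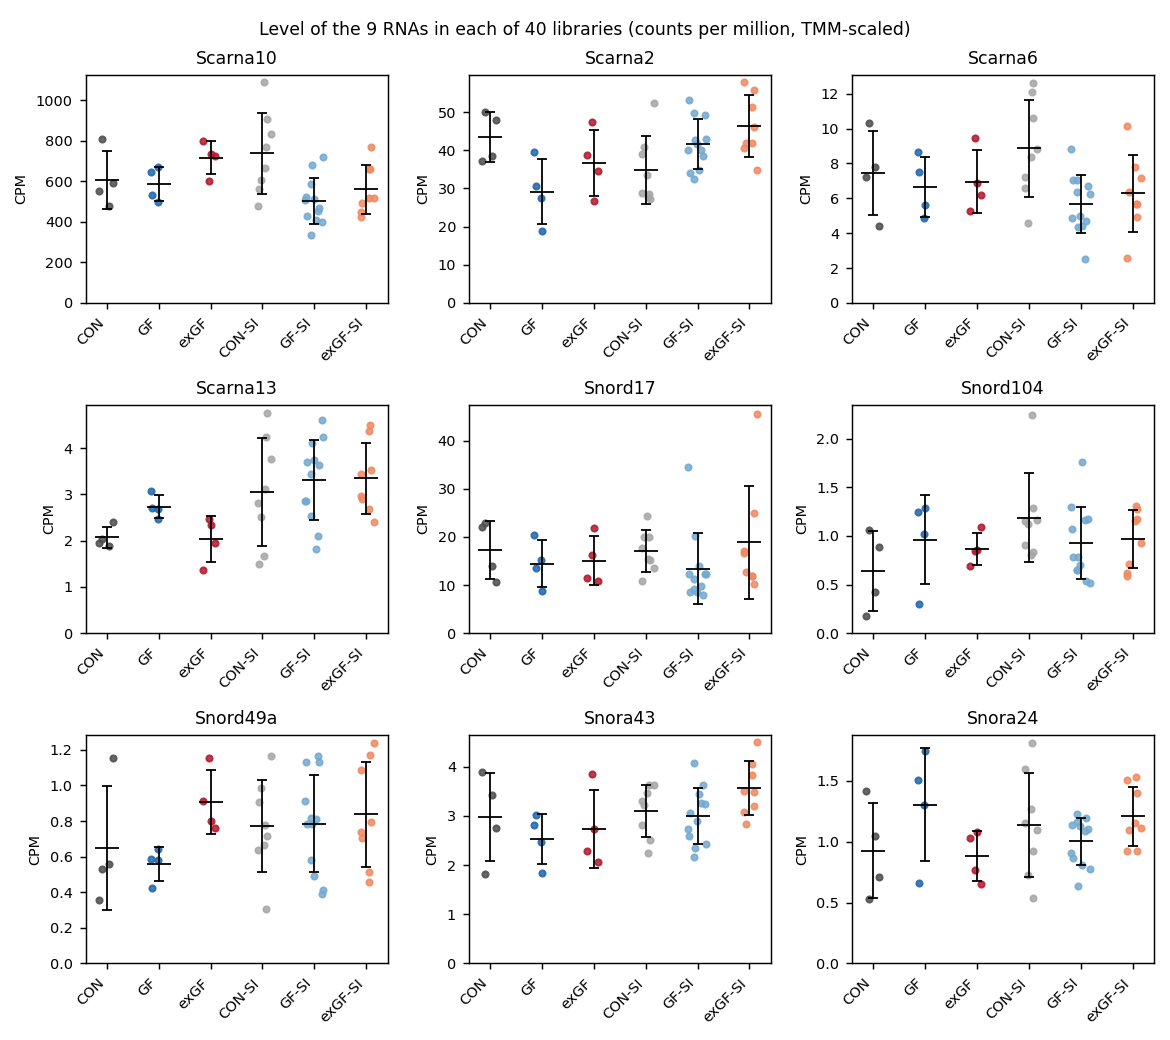
Level of each of the 9 RNAs (vertical, CPM after TMM scaling, linear axis from 0) in each of 40 libraries, by group (horizontal). Points are libraries, and bars give the mean and SD of the group. Scarna10 lies between 334 and 1089 CPM and Snord49a between 0.307 and 1.24 CPM.

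Among naïve mice, edgeR (quasi-likelihood F-test, Benjamini-Hochberg adjustment over all genes tested, called at an adjusted p of at most 0.1) called 0 of 8 RNAs in GF over CON, against 0.142% of all genes. Snord49a was too low to be tested in the 3 naïve comparisons. Scarna2 had the smallest p. Its level was 37.3, 50.05, 47.9 and 38.4 CPM in CON-P1 to CON-P4 and 39.5, 27.4, 19.0 and 30.6 CPM in GF-P1 to GF-P4. GF-P1 overlapped the lower CON pools, and the other GF pools lay below all of them. The fitted log2 fold change was −0.59 (SE 0.18, p = 0.00588, adjusted p = 0.309), the only one of the 8 at p below 0.05, and DESeq2 called 0. Of all genes, 1636 of 14811 had p below 0.05. Without a filter on low counts the adjusted p of Scarna2 was 0.0814. Scarna13 pointed the other way, with 1.94, 2.05, 2.398 and 1.89 CPM in the CON pools and 3.08, 2.68, 2.48 and 2.71 CPM in the GF pools. All GF pools were above all CON pools, yet at 11 to 47 counts a library the test gave 0.39 (SE 0.20, adjusted p = 0.492). The median log2 fold change of the 8 RNAs was −0.11, against 0.00 over all genes, and with 1 library left out it ran from −0.17 (without GF-P1) to 0.07 (without CON-P2). Of 3 choroid plexus markers tested in GF over CON, edgeR called 0 and 3 had p below 0.05, with a median of −1.33. Their part in these values was not tested.

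In exGF over CON 0 of 8 were called by edgeR, 0 had p below 0.05 and DESeq2 called 0. Of all genes edgeR called 0.104%, and 786 of 14463 had p below 0.05. The values ran from −0.26 (Scarna2) to 0.31 (Snord104). In exGF over GF edgeR called 0 of 8 and 0.0% of all genes, while 1382 of 14669 genes had p below 0.05 and DESeq2 called 72, none of them among the 9. Scarna10 was the 1 RNA with p below 0.05 there. It had 551, 809, 591 and 477 CPM in the CON pools, 647, 500, 673 and 534 CPM in the GF pools, and 727, 798, 603 and 736 CPM in the exGF pools. The exGF levels were higher than GF except that exGF-P3 lay among the GF pools (log2 fold change 0.28, SE 0.12, adjusted p = 0.513).

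After social interaction the stimulus itself was visible, with all 6 activity-induced genes that were checked (Fos, Fosb, Egr2, Bdnf, Homer1 and Nr4a3) called higher in CON-SI and 5 of the 6 in each of the other SI groups. In CON-SI over CON edgeR called 0 of the 9 RNAs, against 3.72% of all genes, and DESeq2 called 0. At p below 0.05 there were 0 of the 9, against 2513 of 15220 genes. The largest value was that of Snord104, 0.75 (SE 0.38, adjusted p = 0.342). Its CON pools held 1, 14, 10 and 6 counts. Scarna2 was at 27.2 CPM in the lowest CON-SI library, 31.1 at the median and 52.5 in the highest. Most CON-SI mice thus lay below the CON pools of 37.3 to 50.05 CPM, with overlap (log2 fold change −0.35, SE 0.17, adjusted p = 0.317). Scarna10 had 479, 717 and 1089 CPM at the lowest, median and highest CON-SI library, a range that held 3 of the 4 CON pools, with CON-P4 just below it (0.26, SE 0.20, adjusted p = 0.553). Of the 5 choroid plexus markers edgeR called 1 lower in CON-SI over CON and 5 had p below 0.05, with a median of −1.12. Their part in the values of the RNAs was not tested.

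In GF-SI over GF 1 of 9 RNAs was called, against 13.7% of all genes. Scarna2 was higher after social interaction. Against the GF pools given above, the 12 GF-SI mice had 32.5 CPM at the lowest, 40.8 at the median and 53.0 at the highest. Of the GF pools only GF-P1 reached into that range. The log2 fold change was 0.50 (SE 0.15, adjusted p = 0.0436 by edgeR and 0.0125 by DESeq2). Leaving out GF-P2, which the sample notes give as RNA of a single animal, took the adjusted p to 0.141 and leaving out GF-P3, the pool with the lowest level, took the change to 0.36 and the adjusted p to 0.195. The other 8 RNAs were not called. Scarna10 had 334, 489 and 720 CPM in GF-SI (lowest, median and highest; −0.24, SE 0.15, adjusted p = 0.347). The lowest GF pool, at 500 CPM, was above that median. Snora24 (−0.37, SE 0.23) and Snord49a (0.48, SE 0.31) had wider errors, and their adjusted p-values were 0.35 and 0.365. The median over the 9 RNAs was −0.05, against −0.01 over all genes, and ran from −0.17 (without GF-P4) to 0.11 (without GF-P1) with 1 library left out. Of 7 striatal markers 3 fell in the same comparison (median −1.06 over the 7), and GF-P1 had the highest sum of them. The 5 choroid plexus markers had a median of 1.63, with 0 called by edgeR and 3 at p below 0.05. Their part in the values of the RNAs was not tested.

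In exGF-SI over exGF 1 of 9 was called, against 7.61% of all genes. Scarna13 was higher after social interaction, with 1.96, 1.37, 2.46 and 2.34 CPM in the exGF pools and 2.41, 3.20 and 4.503 CPM at the lowest, median and highest of 8 exGF-SI mice. The groups met only where exGF-P3 lay just above exGF-S4. The log2 fold change was 0.68 (SE 0.21, adjusted p = 0.0894 by edgeR and 0.0549 by DESeq2). This call rested on 12 to 41 counts per pool, and it was lost in 9 of 12 runs that left out 1 library, with adjusted p-values of 0.1 to 0.249 and changes of 0.55 to 0.77. It was lost on leaving out any one of the 4 exGF pools, exGF-S3, exGF-S6, exGF-S8, exGF-S9 or exGF-S10, and kept without exGF-S4, exGF-S5 or exGF-S7. In exGF-P1, exGF-P2 and exGF-S7 over 5% of all counts fell on Gm42418, a row that overlaps ribosomal RNA repeats, and without them the change was 0.50 (SE 0.26, adjusted p = 0.379). Scarna2 had 34.6, 38.7, 47.3 and 26.6 CPM in the exGF pools and 34.9, 44.1 and 57.9 CPM in exGF-SI (0.32, SE 0.15, adjusted p = 0.231). Scarna10 pointed down, with 424, 518 and 771 CPM in exGF-SI (−0.37, SE 0.14, adjusted p = 0.152 by edgeR and 0.0991 by DESeq2). Most of these mice lay below the lowest exGF pool of 603 CPM, and without exGF-S8, the exGF-SI mouse with the highest level, the change was −0.44 and the edgeR adjusted p 0.0658. Scarna10 was called in only that 1 of 12 runs that left out 1 library, with adjusted p-values up to 0.356. All 3 of these scaRNAs had p below 0.05, as did 3191 of 15264 genes. The median over the 9 was 0.30, against 0.00 over all genes. This was the value of Snord17, which was −0.036 without exGF-S4, and the median was then 0.16. Of the 5 choroid plexus markers 1 rose in the same comparison and 4 had p below 0.05, with a median of 2.27, and their part in these values was not tested.

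**Figure D3:**
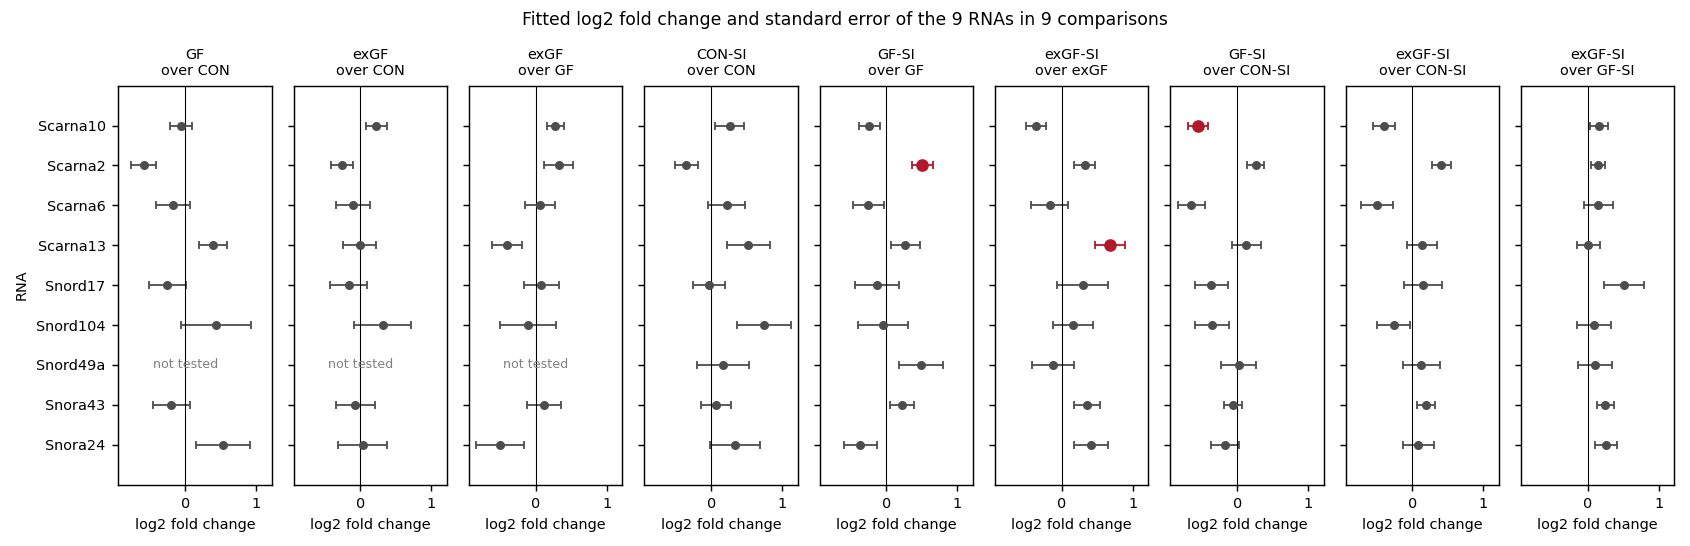
Fitted log2 fold change (horizontal) of the 9 RNAs (vertical) in 9 pairwise comparisons, 1 panel each, with bars of 1 SE. Large red points mark the 3 values called at an adjusted p of at most 0.1, which are Scarna2 in GF-SI over GF (0.50), Scarna13 in exGF-SI over exGF (0.68) and Scarna10 in GF-SI over CON-SI (−0.56).

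Between mice that had all gone through social interaction, each library came from 1 animal. In GF-SI over CON-SI 1 of 9 RNAs was called, against 1.1% of all genes. This was Scarna10, at the levels given above. Only 1 of the 12 GF-SI mice exceeded the CON-SI median of 717 CPM, though the ranges overlapped. The log2 fold change was −0.56 (SE 0.15, adjusted p = 0.0904 by edgeR and 0.0228 by DESeq2). The adjusted p rose to between 0.127 and 0.213 when any of 12 libraries was left out (CON-S3, CON-S5, CON-S6, CON-S10, CON-S11, GF-S4, GF-S5, GF-S6, GF-S7, GF-S8, GF-S10 and GF-S12), with changes of −0.58 to −0.45. With no filter on low counts it was 0.113. Scarna6, the other mixed U5 guide, had 4.61, 8.595 and 12.6 CPM in CON-SI and 2.55, 5.63 and 8.85 CPM in GF-SI (lowest, median and highest). The GF-SI mice lay mostly in the lower part of the CON-SI range. The log2 fold change was −0.65 (SE 0.19, adjusted p = 0.132 by edgeR and 0.0531 by DESeq2), and the edgeR adjusted p was 0.0606 without CON-S2, 0.0706 without CON-S7 and 0.078 without GF-S1. Scarna6 was called in only these 3 of 20 runs that left out 1 library, and its adjusted p went up to 0.303. Scarna2 pointed the other way (0.26, SE 0.12, adjusted p = 0.285). The 9 RNAs had a median of −0.18 against −0.01 over all genes (−0.29 without CON-S5 and −0.081 without CON-S12), or −0.46 for the 4 with a mean of at least 50 counts. The choroid plexus markers had a median of 1.65 here, with 0 of 5 called by edgeR and 5 at p below 0.05, and their part in the value of Scarna10 was not tested.

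In exGF-SI over CON-SI edgeR called 0 of 9, against 1.31% of all genes, and DESeq2 called 0. At p below 0.05 there were 3 of the 9, against 2022 of 14937 genes. The 3 were Scarna2 (0.41, SE 0.14, adjusted p = 0.182), Scarna10 (−0.40, SE 0.16, adjusted p = 0.256) and Scarna6 (−0.50, SE 0.23, adjusted p = 0.343). Scarna6 had 2.59, 6.02 and 10.1 CPM in exGF-SI. In the naïve pools it had been at 7.25, 10.31, 4.44 and 7.77 CPM in CON, 8.64, 4.86, 5.59 and 7.53 in GF, and 6.19, 5.26, 9.47 and 6.90 in exGF, with the 3 groups overlapping. Without CON-S6, which had the highest Scarna2 of its group, the Scarna2 change was 0.52 with an adjusted p of 0.0686. Scarna2 was called in only that 1 of 16 runs that left out 1 library, with adjusted p-values up to 0.312. This comparison shares its CON-SI libraries with the one before, so that their values are not independent. Of 4 choroid plexus markers tested in exGF-SI over CON-SI, edgeR called 2 higher and 4 had p below 0.05, with a median of 2.35. Their part in the values of the RNAs was not tested. In exGF-SI over GF-SI edgeR called 0 of 9, against 0.0995% of all genes, and DESeq2 called 0. At p below 0.05 there were 0 of the 9, against 1949 of 15068 genes. The values ran from 0.00 (Scarna13) to 0.51 (Snord17, SE 0.29, adjusted p = 0.459), with a median of 0.15 against 0.00 over all genes. Without exGF-S4 the Snord17 value was 0.17, and with 1 library left out that of Scarna13 ran from −0.069 to 0.058.

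The difference between 2 responses to social interaction was tested in a single fit over the 6 groups. For the response of GF over the response of CON edgeR called 0 of 9, against 0.0931% of all genes, and DESeq2 called 1, against 482 of 12956 genes. At p below 0.05 there was 1 of the 9, against 2550 of 16111 genes. The RNA in both cases was Scarna2. Its response was −0.35 in CON and 0.50 in GF, and the difference was 0.86 (SE 0.23, p = 0.000768, adjusted p = 0.122 by edgeR and 0.0491 by DESeq2). Leaving out any 1 of 7 libraries (CON-P4, GF-P1, GF-P4, CON-S2, CON-S7, GF-S1 or GF-S3) brought the edgeR adjusted p to between 0.0631 and 0.0925. Scarna2 was called in only these 7 of 40 such runs. Over the 40 its adjusted p went up to 0.341, with differences of 0.71 to 1.03. The 5 choroid plexus markers had a median of 2.76 for the same difference, with 0 called by edgeR and 4 at p below 0.05. Their part in the value of Scarna2 was not tested. For the response of exGF over that of CON edgeR called 0 of 9 and 0.0% of all genes (939 of 16111 genes at p below 0.05, and 1 by DESeq2, none of the 9). Scarna2 (0.67, SE 0.24, adjusted p = 0.809) and Scarna10 (−0.63, SE 0.26, adjusted p = 0.827) had p below 0.05. The choroid plexus markers had a median of 3.40 there, with 0 of 5 called by edgeR and 5 at p below 0.05. For the response of exGF over that of GF edgeR called 0 of 9 and 0.0% of all genes (1839 genes at p below 0.05, and 43 by DESeq2, none of the 9). Snora24 was the 1 RNA with p below 0.05 (0.78, SE 0.37, adjusted p = 0.409).

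The 5 snoRNAs that guide ribosomal RNA modification were called in 0 of 12 comparisons by edgeR and by DESeq2. Snord49a was too low for edgeR to test in the naïve comparisons. Of all genes, edgeR called 0.0% (exGF over GF) to 13.7% (GF-SI over GF). DESeq2 called 1 of 29591 (response of exGF over that of CON) to 2475 of 16237 genes (GF-SI over GF). With 5 RNAs at such shares, the 0 is not read as a trait of these RNAs. Of their values 1 had p below 0.05, the one of Snora24 given above. Snord17 was at 22.1, 22.8, 10.7 and 13.9 CPM in the CON pools, 20.4, 15.2, 8.71 and 13.5 in the GF pools, and 10.9, 11.4, 16.2 and 21.9 in the exGF pools. Its median was 16.5 CPM in CON-SI (10.7 to 24.3), 11.8 in GF-SI (7.93 to 34.5) and 14.7 in exGF-SI (10.2 to 45.5). The naïve groups overlapped throughout, and its wide range in GF-SI and exGF-SI came from GF-S1 and exGF-S4, the highest libraries of their groups. The SE of its fold changes, 0.22 to 0.36 in the pairwise fits, was above that of Scarna2, 0.10 to 0.20, although Snord17 had 226 counts on average.

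Snora43 had the evenest level, with 2.48 times between its lowest and highest library (1.82 and 4.52 CPM). Its group medians were 3.09 CPM in CON, 2.64 in GF and 2.51 in exGF, and 3.26, 2.98 and 3.497 CPM in the same order after social interaction. The largest of its pairwise log2 fold changes was 0.35 (SE 0.19, adjusted p = 0.293), in exGF-SI over exGF. Snora24 was at 1.41, 0.531, 0.711 and 1.05 CPM in the CON pools, 1.51, 1.30, 1.74 and 0.663 in the GF pools and 0.652, 1.03, 0.77 and 1.08 in the exGF pools. With 6 to 30 counts a library, GF-P2 and GF-P4 lay within the range of the CON pools, and GF over CON gave 0.54 (SE 0.38, adjusted p = 0.636). Without GF-P4 its value in GF-SI over GF was −0.60 with an adjusted p of 0.0949. Snora24 was called in only that 1 of 16 runs that left out 1 library, with adjusted p-values up to 0.746. Snord104 medians were 0.654, 1.13 and 0.851 CPM in CON, GF and exGF, and 1.14, 0.785 and 1.04 CPM in the same order after social interaction, on 1 to 26 counts a library. Snord49a medians lay between 0.545 and 0.857 CPM in the 6 groups. With all libraries kept, edgeR called no difference between groups for Snora24, Snord104 or Snord49a. At these counts differences could go unseen.

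Scarna2 and Scarna10 both guide snRNA modification, Scarna2 from its own transcription unit and Scarna10 from within a host gene. Their ratio, which no scaling between libraries alters, was looked at after their values had been seen and is given as a description. Reads of Scarna2 per 100 reads of Scarna10 were 6.77, 6.18, 8.10 and 8.06 in the CON pools. They were 6.11, 5.48, 2.82 and 5.73 in the GF pools, all below CON, and 4.76, 4.84, 7.84 and 3.61 in the exGF pools. After social interaction the lowest, median and highest CON mice had 3.01, 4.65 and 8.13. The same values were 5.52, 8.15 and 14.9 for GF mice, and 6.72, 7.96 and 12.9 for exGF mice. The means were 7.28 ± 0.958 in CON and 5.03 ± 1.87 in CON-SI (SD, n = 4 and 8). In GF they went from 5.03 ± 1.498 to 8.71 ± 2.69 (SD, n = 4 and 12), and in exGF from 5.26 ± 1.81 to 8.49 ± 2.01 (SD, n = 4 and 8). The ratio was thus lower after social interaction in CON and higher in GF and exGF, with overlapping libraries in CON and in exGF, and in GF where 2 GF-SI libraries fell below GF-P1.

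**Figure D4:**
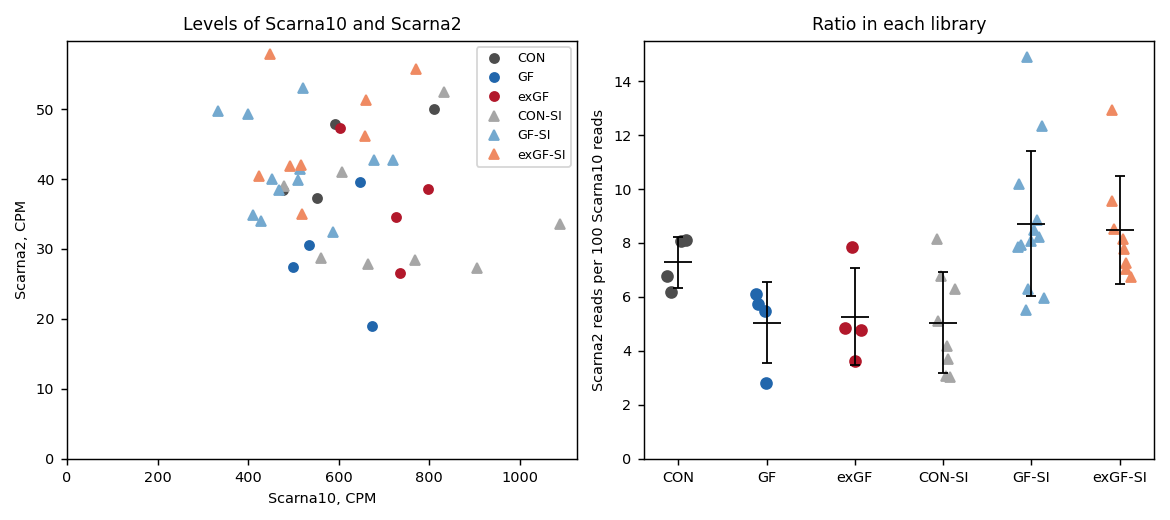
Left, level of Scarna2 against Scarna10 (CPM, axes from 0) in 40 libraries, circles for naïve pools and triangles for single SI mice. Right, Scarna2 reads per 100 Scarna10 reads in each library by group, with mean and SD. GF-SI (8.71) and exGF-SI (8.49) have the highest means and CON-SI (5.03) and GF (5.03) the lowest.

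Host genes had rows for 4 of the RNAs, and 0 of these 4 host genes were called in any of the 12 comparisons by edgeR. Reads that run from an intron into the RNA within it are counted for the RNA, so that unspliced host transcripts can add to its count. Ncapd2 lay beside Scarna10 at a far lower count, 126 against 8588 on average. Ncapd2 had 7.10, 10.32 and 14.6 CPM in CON-SI and 6.27, 8.30 and 9.24 CPM in GF-SI (lowest, median and highest), and the libraries with the highest and the lowest value in CON-SI were CON-S3 and CON-S7, as for Scarna10. Both ends were also shared in exGF-SI (exGF-S8 and exGF-S10). Only the lowest was shared in GF (GF-P2), only the highest in GF-SI (GF-S2), and neither in CON. In exGF, exGF-P2 was the highest for Scarna10 and the lowest for Ncapd2. The log2 fold change of Ncapd2 in GF-SI over CON-SI was −0.38 (SE 0.10, adjusted p = 0.118), in the direction of Scarna10. In exGF over CON the values differed in sign, with −0.34 (SE 0.22) for Ncapd2 and 0.22 (SE 0.14) for Scarna10. Atg16l1 was at −0.07 (SE 0.06, adjusted p = 0.599) in GF-SI over CON-SI, where Scarna6 was at −0.65. Its value in exGF-SI over exGF was 0.28 (SE 0.10, adjusted p = 0.119), where Scarna6 was at −0.17 (SE 0.26). Snx5 ranged from −0.05 to 0.06 over the 9 pairwise comparisons, and Snord17 from −0.36 to 0.51. 2410006H16Rik was at −0.27 (SE 0.13, adjusted p = 0.202) in GF-SI over GF, where Snord49a was at 0.48. The difference between an RNA and its host was not tested.

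**Figure D5:**
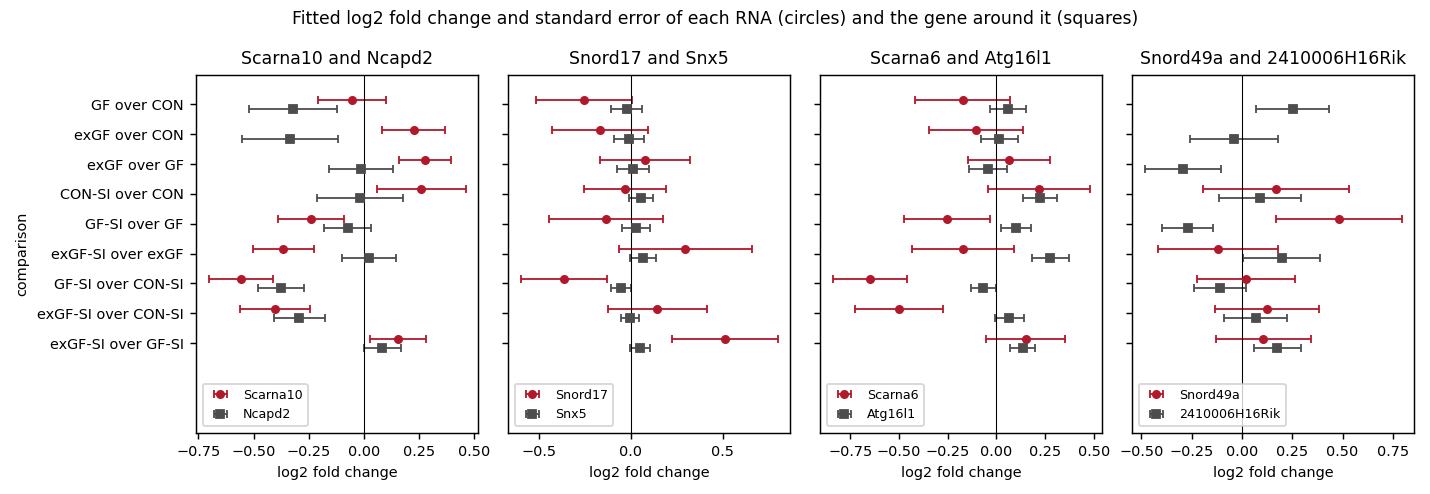
Fitted log2 fold change (horizontal) with bars of 1 SE for 4 RNAs (red circles) and the gene around each (grey squares) in 9 comparisons (vertical). Snord49a has no value in the naïve comparisons. Ncapd2 and Scarna10 are both below 0 in GF-SI over CON-SI, while Atg16l1 stays near 0 where Scarna6 is at −0.65.

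The calls among proteins that bind these RNAs or assemble their particles were mainly in GF-SI over GF. That comparison also had the most calls over all genes, so their place there is not read as a trait of these proteins. Of 10 core proteins measured, 3 were called there, against 13.7% of all genes. At p below 0.05 there were 4 of the 10, against 3711 of 15443 genes. Fbl (fibrillarin, the methyltransferase of C/D particles; 0.57, SE 0.19, adjusted p = 0.0776) and Dkc1 (dyskerin, the pseudouridine synthase; 0.30, SE 0.08, adjusted p = 0.0219) rose. Wrap53 (which brings scaRNAs to the Cajal body; −0.51, SE 0.15, adjusted p = 0.0464) fell. In the other 11 comparisons edgeR called 0 of the 10, with 0 to 4 at p below 0.05. Of all genes, 786 of 14463 (exGF over CON) to 3191 of 15264 (exGF-SI over exGF) had such a p in those comparisons. Of 14 assembly and Cajal body proteins, 3 were called in GF-SI over GF, against the same 13.7%, and 8 had p below 0.05. Nolc1 (a nucleolar and Cajal body chaperone; 0.47, SE 0.10, adjusted p = 0.00681) and Shq1 (a dyskerin chaperone; 0.40, SE 0.14, adjusted p = 0.0955) rose in GF-SI over GF, and Znhit3 (an assembly factor of C/D particles; −0.38, SE 0.14, adjusted p = 0.0952) fell. Ruvbl1, a helicase of the assembly complex, rose in exGF-SI over exGF (0.35, SE 0.09, adjusted p = 0.0476) and was higher in exGF-SI than in CON-SI (0.28, SE 0.07, adjusted p = 0.0704). It was the 1 of 14 called in each, against 7.61% and 1.31% of all genes. In the other 9 comparisons 0 of the 14 were called, with 1 to 7 at p below 0.05. The 7 were in the response of GF over that of CON, where 2550 of 16111 genes had such a p. The median over the 14 in GF-SI over GF was 0.22, against −0.01 over all genes.

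Other short structured RNAs gave 3 calls in 12 comparisons, with 9 to 12 of 21 tested, all lower. There was 1 call among 11 tested in each of GF-SI over GF, exGF-SI over exGF and GF-SI over CON-SI. Of all genes, 13.7%, 7.61% and 1.1% were called in these comparisons. Rpph1, the RNA of RNase P, had 879 to 1460 CPM in CON-SI, 723 to 1105 in GF-SI and 997 to 1316 in the GF pools. Its change in GF-SI over CON-SI was −0.39 (SE 0.10, adjusted p = 0.0661), where Scarna10 was lower too, and it fell in GF-SI over GF (−0.36, SE 0.11, adjusted p = 0.0463), where Scarna2 rose. Rn7sk, the 7SK RNA that holds back transcription elongation, fell in exGF-SI over exGF (−0.57, SE 0.15, adjusted p = 0.0598). It took 4.59% to 12.8% of all counts in a library. In GF-SI over CON-SI the value of Rn7sk was −0.26 (SE 0.12, adjusted p = 0.282). The median over the 11 short RNAs tested in GF-SI over CON-SI was −0.25. The part of this in the value of Scarna10 was not tested. A list of 20 host genes of small RNAs held mostly lncRNAs, and also the protein-coding Snrpn and Snurf. Of these, edgeR called 3 of 17 tested in exGF-SI over exGF, against 7.61% of all genes. It called 0 in the other 11 comparisons, where 0 to 6 had p below 0.05. The 6 were in the response of exGF over that of GF, where 1839 of 16111 genes had such a p. Snhg14 (0.51, SE 0.16, adjusted p = 0.0832), the host of the Snord115 and Snord116 clusters, and Mirg (0.78, SE 0.26, adjusted p = 0.0999) rose, and Snhg6 (−0.51, SE 0.16, adjusted p = 0.096) fell.

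Library totals ran from 7291810 to 19961958 counts. In 5 libraries (pools 1 and 3 of CON, pools 1 and 2 of exGF, and exGF-S7) more than 5% of the counts fell on Gm42418, up to 32.3%. Neuronal markers were present in every library, with Slc17a7 at 367 to 562 CPM and Gad1 at 170 to 265 CPM. The 6 markers of amygdala nuclei summed to between 142 and 338 CPM, and the 7 markers of the neighbouring striatum to between 36.9 and 140 CPM, highest in GF-P1 and at most 67.0 CPM in every other library. The 5 choroid plexus markers summed to between 33.8 and 289 CPM in the CON pools, 19.9 and 24.4 in the GF pools and 17.4 and 45.1 in the exGF pools. After social interaction they summed to between 31.3 and 70.9 CPM in CON-SI libraries, 13.97 and 978 CPM in those of GF-SI and 27.0 and 1457 CPM in those of exGF-SI. The part of these tissues in the levels of the 9 RNAs was not tested. In tissue RNA, fewer cells of a type and less RNA per cell cannot be told apart.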

How the data were processed

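The values are gene counts that the authors deposited as whole numbers, with no scaling between libraries. By the study's methods and the submitters' processing notes, the stranded, ribodepleted libraries were sequenced as read pairs. Reads were processed with CASAVA, Trimmomatic 0.32 (short reads dropped), STAR 2.4.0f1 (GRCm38.p3) and HTSeq 0.6.0, which counted without regard to strand and left out reads that map to several places. Multi-copy RNAs are therefore undercounted. Symbols came from GENCODE vM21 for 42462 of 43629 genes, while the counts follow Ensembl 78. Columns of the authors' own comparisons were not used. Groups come from the column names, and single samples were not tied to replicate labels. 0 pairs of libraries were identical.

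Each pair of groups was fitted on its own with edgeR 4.0.16 in R 4.3.3 (TMM scaling, filterByExpr on the groups compared, quasi-likelihood F-test, Benjamini-Hochberg adjustment over all genes tested, called at an adjusted p of at most 0.1). Differences between responses were contrasts in a single fit over the 6 groups. SEs were derived from the fold change and F statistic. Two-sided p-values set a difference between groups against the spread between libraries, which are pools in naïve groups and single animals in SI groups. Alternatives were DESeq2 1.42.0, RLE scaling, no filter, 1 fit over the 6 groups, no rRNA-rich libraries and each library left out. Tables and figures used Python 3.11.15, pandas 2.3.3, numpy 2.4.6 and matplotlib 3.10.9. The tests were tried on simulated counts. The text names every called RNA, the 5 with the smallest p in a comparison, every Scarna, host genes and genes of set lists, and not every gene this covers is given. Members and lists were chosen with earlier results of these data known.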

Additional observations from a re-analysis of the deposited data

Results flagged for a closer look

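In groups of 4 to 8 libraries, 45 sets of values (9 RNAs in 5 groups) were searched for a library far from its group. GF-SI, with 12 libraries, was not searched. Such a search flags about 1 in 20 groups by chance, and 2 were found. Snord17 in exGF-S4 was at 45.5 CPM, with the next exGF-SI library at 25.1, a gap of 0.578 of the range of the group. Without exGF-S4 the log2 fold change of Snord17 in exGF-SI over CON-SI went from 0.14 to −0.19 (adjusted p = 0.728). Snord104 in CON-S10 was at 2.25 CPM, with the next CON-SI library at 1.29, a gap of 0.661 of the range.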

How the results depend on the processing

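No paired analysis was possible because the columns carry no number that links a naïve pool to an SI animal. The number of RNAs called stayed the same in 46 of 55 runs that changed a setting, over the 12 comparisons. Without a filter it went from 0 to 1 in GF over CON, from 1 to 0 in exGF-SI over exGF and from 1 to 0 in GF-SI over CON-SI. With DESeq2 it went to 2 in exGF-SI over exGF, to 2 in GF-SI over CON-SI and from 0 to 1 for the response of GF over that of CON. With 1 fit over the 6 groups it went to 0 in exGF-SI over exGF and 2 in GF-SI over CON-SI, and without the rRNA-rich libraries to 0 in exGF-SI over exGF. Leaving out 1 library gave 0 to 2 calls in GF-SI over GF and in GF-SI over CON-SI, 0 to 1 in exGF-SI over exGF, in exGF-SI over CON-SI and for the response of GF over that of CON, and 0 in the other 7 comparisons. Of 480 fold changes of single RNAs under another setting, 467 kept their side of the threshold and did not turn by more than 1 SE. Those that turned without the rRNA-rich libraries were uncalled: Snora43 (0.28) and Scarna13 (0.26) in exGF over CON, Scarna6 in CON-SI over CON (−0.044) and Snora43 for the response of exGF over that of CON (−0.065). Over single libraries left out, the uncalled Scarna10 value in GF over CON ran from −0.15 to 0.11 (above 0 without CON-P2) and the uncalled Snord17 value in exGF-SI over CON-SI from −0.19 (without exGF-S4) to 0.24. The cause of these moves was not tested. Over all genes, the calls by DESeq2 and edgeR differed by more than 1.5 times in 10 of the 12 comparisons, with 156 against 21 in GF over CON, 60 against 15 in exGF over CON, 72 against 0 in exGF over GF, 961 against 566 in CON-SI over CON, 521 against 166 in GF-SI over CON-SI, 564 against 195 in exGF-SI over CON-SI and 300 against 15 in exGF-SI over GF-SI, and for differences between responses 482 against 15 (GF and CON), 1 against 0 (exGF and CON) and 43 against 0 (exGF and GF). Counting error came near the within-group SD for Snord49a (30.3% against 33.2% of the mean) and Snora24 (25.7% against 31.3%), and was further below it for Snord104 (27.2% against 39.2%), Scarna13 (15.3% against 24.2%) and Snora43 (15.2% against 21.6%).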
